A study of Mus musculus with 12 samples.

Results

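The genes described here encode receptors for vasoactive hormones, the partner proteins of those receptors and their ligands: the serotonin receptor Htr2b, the endothelin receptor Ednrb, the receptor Calcrl, its partners Ramp1 and Ramp2, and the ligands Edn1 and Adm. They are 7 of the 54582 gene symbols present in both deposited count tables, matched by exact symbol. Htr2b, Ednrb and Calcrl were chosen by their measured fold changes, which were among the largest between genotypes in these same libraries, and the other 4 were added as partners and ligands. The genotype difference that picked them is therefore given as a description, without a test.

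The study sequenced RNA of primary mouse macrophages grown from tibial bone marrow of animals labelled 6-8 weeks, in 4 groups of 3 libraries. KO + AC and KO are macrophages labelled as altered in Kif13b, a kinesin motor gene, and WT + AC and WT are wild type. AC stands for apoptotic Jurkat cells (Jurkat is a line of human leukaemic T cells), which were added at 5 apoptotic cells to 1 macrophage for 90 min in the KO + AC and WT + AC groups. KO and WT macrophages without apoptotic cells were kept in medium with serum. The design text gives the altered genotype as Kif13b-/-, the sample labels as a knock down, and KO below stands for the libraries so labelled. The labelled serum share was 12, 13 and 14% in KO libraries 1 to 3 and 10, 10 and 11% in WT libraries 1 to 3, so serum as labelled cannot be told apart from genotype. Whether libraries within a group stem from different animals or cultures is not stated, so the errors and p-values cover only the spread between these libraries.

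The receptors named here act through G proteins at the cell surface. HTR2B and EDNRB raise calcium inside the cell through Gq proteins, and EDNRB also binds every endothelin isoform and clears it from the circulation. CALCRL is not a working receptor alone: with RAMP1 it forms the receptor for calcitonin gene-related peptide, and with RAMP2 or RAMP3 a receptor for adrenomedullin, and these complexes raise cyclic AMP through Gs. Edn1 encodes the precursor of endothelin-1, a vasoconstrictor, and Adm that of adrenomedullin, a vasodilator. In human macrophages HTR2B is known as a receptor of the anti-inflammatory state, and in mice the calcitonin gene-related peptide receptor dampens cytokine release by macrophages.

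The libraries held 17160248 to 17285594 counts in KO + AC, 17000976 to 17256902 in WT + AC, 18351051 to 18770757 in KO and 18256622 to 18461359 in WT. Counts were found for 31787 to 32801 symbols with apoptotic cells, against 18335 to 18540 without, and the 2 conditions stand in separate tables, so any difference between the tables cannot be told apart from the effect of apoptotic cells. RNA of the added Jurkat cells may also be counted in the libraries with them, and its part in the differences below was not tested. Kif13b, the targeted gene, was lower in KO than in WT (log2 fold change -0.59) but 0.13 higher on the log2 scale in KO + AC than in WT + AC, against the label. It kept 281 to 424 counts a library in KO, against 535 to 599 in WT. With 13017 exonic bases it falls in the longest of 8 classes of genes by exonic length. The median log2 fold change of that class between KO and WT was -0.23. If the genotype labels of the libraries with apoptotic cells had been exchanged, every difference between KO + AC and WT + AC given below would change sign, and the comparisons across conditions would change too. Whether they were exchanged was not tested. Libraries of a group differed by 1.4 to 1.93 times sampling noise with apoptotic cells and by 4.96 to 35.5 times without (chi-square per degree of freedom), most between KO libraries 2 and 3. All 10 macrophage markers, among them Adgre1 and Csf1r, had counts in every group.

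The promoters of the 3 receptors and of Ramp1 are shown because these were the genes of more than 50 counts in most libraries and carried the differences described below. The sequences are RefSeq's, 250 bases before to 50 after the start of each gene in RefSeq, written 5′ to 3′ along the gene. A matching sequence was found for 6 of the 7 genes, Ramp2 being the exception. Gene positions given below come from GENCODE, another gene annotation, whose starts can differ. The Ednrb window lies wholly inside Ednrb as GENCODE places it, and the start used for Calcrl lies inside Calcrl. Capitals mark matches on either strand to core motifs of transcription factors active in macrophages. They are TGANTCA (a loosened AP-1 pattern, N being any base), TGACG (a cyclic AMP response element core), GAGGAA (PU.1), CAGGAA (other ETS factors) and ACGTG (hypoxia response).
Htr2b promoter (chr1:86111931-86112230, GRCm38.p6, minus strand): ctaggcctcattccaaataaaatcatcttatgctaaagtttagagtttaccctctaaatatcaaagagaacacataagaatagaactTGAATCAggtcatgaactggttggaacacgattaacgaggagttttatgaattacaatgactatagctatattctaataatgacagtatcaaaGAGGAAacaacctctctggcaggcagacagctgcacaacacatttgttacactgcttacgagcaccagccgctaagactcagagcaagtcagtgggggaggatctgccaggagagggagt
Ednrb promoter (chr14:103843652-103843951, GRCm38.p6, minus strand): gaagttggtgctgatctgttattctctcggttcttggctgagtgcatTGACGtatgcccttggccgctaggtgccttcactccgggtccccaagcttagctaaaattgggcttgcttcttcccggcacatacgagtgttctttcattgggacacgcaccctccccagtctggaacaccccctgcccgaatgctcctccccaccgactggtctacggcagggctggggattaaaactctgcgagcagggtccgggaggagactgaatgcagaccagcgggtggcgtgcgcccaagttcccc
Calcrl promoter (chr2:84425217-84425516, GRCm38.p6, minus strand): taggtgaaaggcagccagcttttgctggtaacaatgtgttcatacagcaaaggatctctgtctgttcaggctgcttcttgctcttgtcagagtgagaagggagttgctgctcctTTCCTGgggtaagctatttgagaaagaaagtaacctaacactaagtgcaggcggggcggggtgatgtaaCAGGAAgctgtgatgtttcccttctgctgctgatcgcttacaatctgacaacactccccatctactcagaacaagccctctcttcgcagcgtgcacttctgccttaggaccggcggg
Ramp1 promoter (chr1:91179572-91179871, GRCm38.p6, plus strand): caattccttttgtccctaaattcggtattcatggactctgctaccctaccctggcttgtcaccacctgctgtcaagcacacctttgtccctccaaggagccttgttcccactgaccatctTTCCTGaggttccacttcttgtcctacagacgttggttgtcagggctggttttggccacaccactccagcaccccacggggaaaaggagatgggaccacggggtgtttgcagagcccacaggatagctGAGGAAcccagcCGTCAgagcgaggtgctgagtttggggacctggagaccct

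Counting the start base as 0, the Htr2b promoter held TGAATCA at -163 to -157 and GAGGAA at -70 to -65. The first matches TGANTCA on both strands only because N allows any middle base, here A, so it is not read as an AP-1 site. The Ednrb promoter held TGACG at -203 to -199. The Calcrl promoter held CAGGAA at -136 to -131 on the opposite strand and at -67 to -62. In the Ramp1 promoter CAGGAA lay at -130 to -125 on the opposite strand, GAGGAA at -2 to 3 and TGACG at 10 to 14 on the opposite strand. Among the other promoters, that of Edn1 held GAGGAA and ACGTG on the opposite strand and that of Adm held none of the 5 motifs. All 5 are common: of 32851 mouse promoters of this length, 7.81% held TGANTCA, 20.8% TGACG, 28.3% GAGGAA, 30.6% CAGGAA and 19.6% ACGTG. No motif was shared by the 3 receptors, and the matches describe the letters only.

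Levels below are CPM, counts scaled to a library total of 1000000 on 1 scale over the 12 libraries, and comparisons between genes use CPM per kilobase of exon. In the KO + AC macrophages the order was Calcrl at 13.1 ± 0.645 CPM per kb, Ednrb at 7.56 ± 0.103 and Htr2b at 2.07 ± 0.323, with no overlap between neighbours (SD, n = 3 in each group). Ramp1 at 0.926 ± 0.0512, Edn1 at 0.887 ± 0.0658 and Adm at 0.870 ± 0.308 overlapped, and Ramp2 was lowest at 0.111 ± 0.0472. In WT + AC macrophages the first 3 genes kept these places, at 12.9 ± 0.440 for Calcrl, 7.02 ± 0.0885 for Ednrb and 3.80 ± 0.293 for Htr2b. The order without apoptotic cells was another. KO macrophages had Ramp1 at 9.14 ± 1.54 CPM per kb and Htr2b at 8.21 ± 1.18, which overlapped, then Calcrl at 2.32 ± 0.708 and Ednrb at 1.85 ± 0.447, which overlapped as well. WT macrophages had Calcrl at 5.42 ± 1.05 and Ramp1 at 5.32 ± 0.151, which overlapped, followed by Ednrb at 4.45 ± 0.372 and Htr2b at 3.42 ± 0.616, which overlapped too. Edn1, Adm and Ramp2 were each below 1 CPM per kb on average in all 4 groups.

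**Figure D1:**
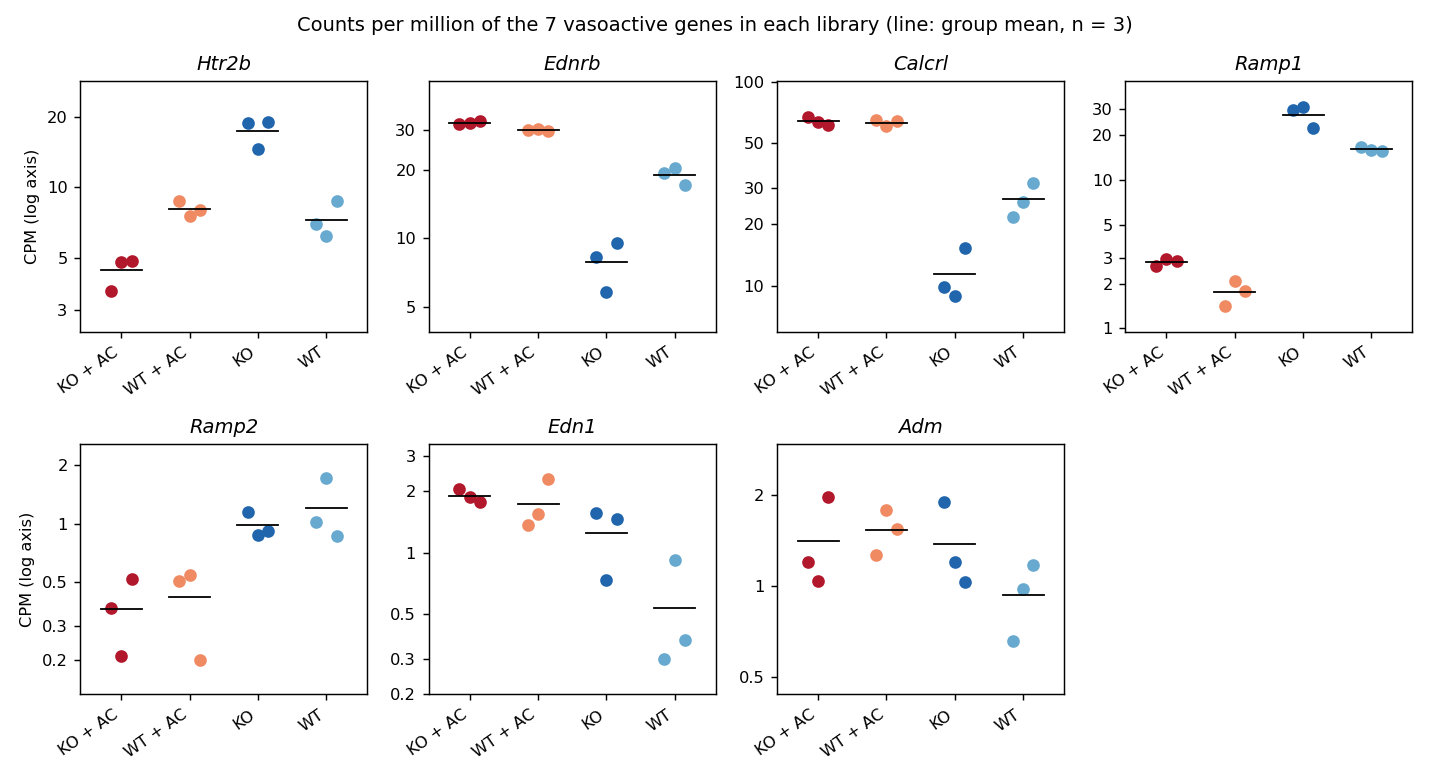
CPM (log axis) of the 7 genes, with 1 point per library and a line at the mean of each group of 3. Htr2b is highest in KO (14.6 to 19.0 CPM) and lowest in KO + AC (3.62 to 4.84 CPM), while Ednrb and Calcrl are lowest in KO and nearly level between KO + AC and WT + AC.

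Without apoptotic cells the serotonin receptor Htr2b stood higher in KO than in WT macrophages, and the endothelin receptor Ednrb and the peptide receptor Calcrl lower, each by more than 2 times. Htr2b lies on GRCm38 chromosome 1 from 86099026 to 86111970 (minus strand), and its counts were 278, 218 and 312 in KO and 116, 101 and 141 in WT. That was 17.5 ± 2.52 CPM in KO and 7.29 ± 1.31 CPM in WT, a log2 fold change of 1.27 (standard error, SE, 0.17). Every KO library lay above every WT library, and the rise held rank 33 among 12640 genes tested. Htr2b shares 252 of its 2131 exonic bases with Psmd1, a proteasome subunit gene on the opposite strand. Whether the counting used strand is not given in the sources used here, and Psmd1 itself had a log2 fold change of -0.07 (SE 0.12) between KO and WT.

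Ednrb lies on chromosome 14 from 103814625 to 103844402 (minus strand), and its counts were 122, 87 and 157 in KO and 324, 332 and 278 in WT. Its level was 7.89 ± 1.91 CPM in KO and 18.99 ± 1.59 CPM in WT, a log2 fold change of -1.26 (SE 0.17) and rank 33 among falls. Calcrl lies on chromosome 2 from 84330626 to 84425411 (minus strand), and its counts were 145, 133 and 251 in KO and 364, 419 and 516 in WT. It averaged 11.3 ± 3.46 CPM in KO and 26.5 ± 5.13 CPM in WT, a log2 fold change of -1.22 (SE 0.18) and rank 36 among falls. For both genes every KO library lay below every WT library. KO library 3 was the KO library nearest to WT for both, with 9.57 CPM of Ednrb and 15.3 CPM of Calcrl.

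Ramp1 (chromosome 1 from 91179822 to 91225196, plus strand), the partner that makes CALCRL a receptor for calcitonin gene-related peptide, differed in the direction opposite to Calcrl. Its counts were 435, 464 and 366 in KO and 277, 260 and 254 in WT, or 27.6 ± 4.66 CPM in KO and 16.1 ± 0.455 CPM in WT. The groups did not overlap, and the log2 fold change was 0.78 (SE 0.14). Ramp2 (chromosome 11 from 101246028 to 101259546, plus strand), the adrenomedullin partner, counted 17, 13 and 15 in KO and 17, 28 and 14 in WT, with overlapping groups and a log2 fold change of -0.29 (SE 0.33). Its value is uncertain, since 1103 of its 3301 exonic bases also belong to Vps25 on the same strand.

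The ligand genes were near the lower limit of detection. Edn1 (chromosome 13 from 42301476 to 42307990, plus strand) counted 23, 11 and 24 in KO and 5, 15 and 6 in WT, a log2 fold change of 1.24 (SE 0.40). KO library 2 lay below WT library 2, so the groups overlapped, and the value was 1.88 without WT library 2 and 0.80 without KO library 3 and WT library 1. Adm (chromosome 7 from 110627661 to 110629820, plus strand) counted 28, 18 and 17 in KO and 11, 16 and 19 in WT, with overlapping groups and a log2 fold change of 0.55 (SE 0.33).

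Of the 7 genes, Htr2b, Ramp1 and Edn1 passed the adjusted threshold as higher and Ednrb and Calcrl as lower in KO than in WT, and nothing is read from this count because the comparison chose the genes. Over all 12640 genes tested 16.2% were called, and the groups did not overlap for 33.6%. When KO libraries 1 and 2 were left out, the calls over all genes numbered 95, against 2045 with all libraries, and the log2 fold changes were 1.38 for Htr2b, -0.99 for Ednrb, -0.79 for Calcrl and 0.47 for Ramp1. The fold change of Adm was then 0.14. The sign of the Ramp2 difference turned to 0.05 without WT library 2.

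Among the 7 genes the sign of the difference ran with exonic length. The 4 genes with a positive log2 fold change were the shorter ones (Adm 1619, Htr2b 2131, Edn1 2139 and Ramp1 3022 bases), and the 3 with a negative one the longer (Ramp2 3301, Ednrb 4266 and Calcrl 4882 bases). Over all genes the median log2 fold change between KO and WT ran from 0.28 in the shortest of 8 length classes to -0.23 in the longest. After each library was corrected for its trend with length, the log2 fold changes were 1.11 for Htr2b, -1.28 for Ednrb, -1.21 for Calcrl, 0.68 for Ramp1, -0.36 for Ramp2, 1.09 for Edn1 and 0.35 for Adm. The class that holds Htr2b and Edn1 had a median of 0.18, that of Ednrb 0.06 and that of Calcrl 0.02.

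**Figure D2:**
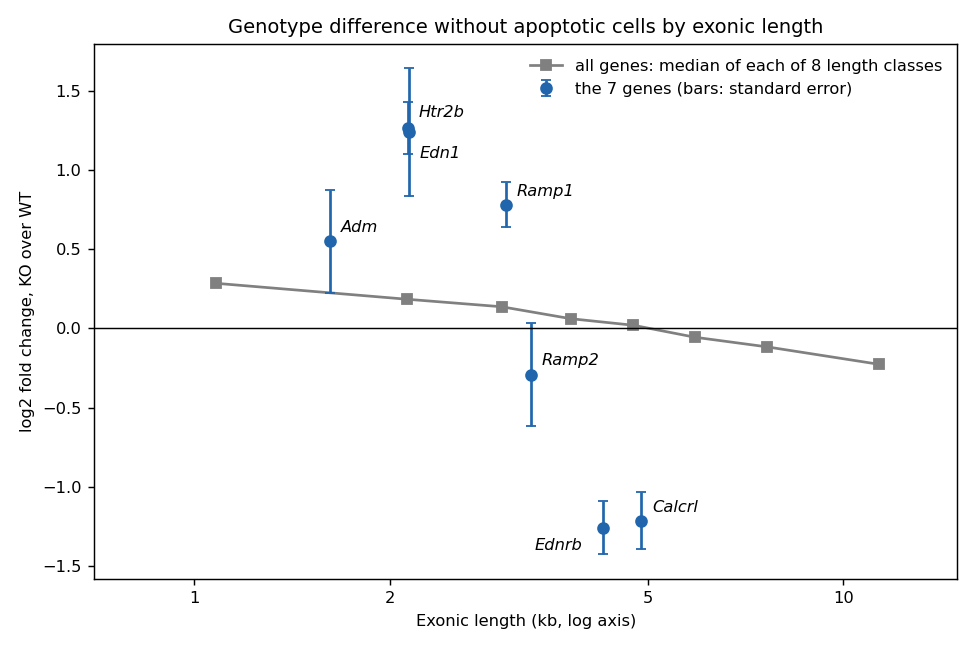
Log2 fold change of KO over WT against exonic length (log axis), for the 7 genes with their SE and for all genes as the median of 8 length classes. The class medians run from 0.28 to -0.23, and Htr2b (1.27), Ednrb (-1.26) and Calcrl (-1.22) are the genes chosen by this fold change.

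Markers of other cell types that use these receptors were counted beside the 7 genes. Endothelial cells express Ednrb, Calcrl, Ramp2 and Edn1, and 9 of 10 endothelial markers were in both tables. Their summed level was 21.8 to 29.3 CPM in KO and 22.7 to 26.3 CPM in WT, with Cldn5 and Erg at 0 counts in both groups. Fibroblast and smooth muscle markers, of cells in which Htr2b is also expressed, summed to 938 to 1228 CPM in KO and 624 to 773 CPM in WT over 10 markers, none of them at 0. Of 8 such markers tested, 5 were higher in KO and none was lower, with log2 fold changes of 1.68 for Acta2 and 1.002 for Col3a1. The 5 mesothelial markers summed to 112.2 to 118.2 CPM in KO and 61.0 to 83.7 CPM in WT, with 3 of 5 higher. The background to these marker counts was 7.94% for rises and 8.24% for falls among the 12640 genes tested. The part of these lists in the differences of Htr2b, Ednrb and Calcrl was not tested, and fewer cells of a type cannot be told apart from less RNA per cell in bulk RNA.

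With apoptotic cells Htr2b stood lower in the libraries labelled KO + AC than in those labelled WT + AC, Ednrb and Calcrl were close to level, and Ramp1 was higher. These directions rest on labels that the Kif13b level goes against. Htr2b had 69, 92 and 93 counts in KO + AC libraries and 173, 152 and 160 in WT + AC libraries, or 4.42 ± 0.688 CPM in KO + AC and 8.11 ± 0.625 CPM in WT + AC. The groups did not overlap, with a log2 fold change of -0.90 (SE 0.12). This is a description, because Htr2b was among the largest differences here too. The same markers ran the other way as well: fibroblast and smooth muscle markers summed to 272 to 293 CPM in KO + AC and 392 to 429 CPM in WT + AC, with 5 of 9 tested lower, and mesothelial markers to 8.70 to 9.71 CPM in KO + AC and 12.8 to 13.8 CPM in WT + AC, with 3 of 6 lower. Macrophage markers summed to 16090 to 16400 CPM in KO + AC and 13340 to 14140 CPM in WT + AC, with 6 of 10 higher, and the part of these lists in the genotype differences was not tested. Beside these marker counts, the background between KO + AC and WT + AC was 6.58% for rises and 4.75% for falls among 16467 genes. Psmd1 had a log2 fold change of 0.02 (SE 0.04).

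Ednrb had 608, 617 and 630 counts in KO + AC libraries and 592, 608 and 592 in WT + AC libraries, at 32.3 ± 0.439 CPM in KO + AC and 29.9 ± 0.378 CPM in WT + AC. Every KO + AC library was above every WT + AC library, but the difference did not pass the test (log2 fold change 0.08, SE 0.05, edgeR adjusted p = 0.370). Calcrl had 1283, 1220 and 1175 counts in KO + AC libraries and 1275, 1221 and 1283 in WT + AC libraries. The groups overlapped at 63.98 ± 3.15 CPM in KO + AC and 63.1 ± 2.15 CPM in WT + AC (log2 fold change -0.0046, SE 0.04, edgeR adjusted p = 0.969). With standard errors this small, differences of the size seen between KO and WT would have stood far outside the spread.

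Ramp1 was the only one of the 6 genes tested between KO + AC and WT + AC that passed. It had 50, 56 and 55 counts in KO + AC libraries and 28, 42 and 36 in WT + AC libraries, at 2.80 ± 0.155 CPM in KO + AC and 1.77 ± 0.334 CPM in WT + AC. The groups did not overlap, and Ramp1 was higher in KO + AC (log2 fold change 0.64, SE 0.19, edgeR adjusted p = 0.0198). In edgeR the call ended in the joint fit of 12 libraries (adjusted p = 0.148) and without KO + AC library 2 (0.0822), WT + AC library 1 (0.122) or WT + AC library 3 (0.0506), and the adjusted p ran from 0.0123 to 0.148 over the alternatives that gave one (DESeq2 gave none). Over all 16467 genes tested 11.3% were called and the groups did not overlap for 26.4%, so 1 call among 6 genes is near that background.

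The partner and ligands of low abundance overlapped between the genotypes. Ramp2 had 7, 4 and 10 counts in KO + AC libraries and 10, 11 and 4 in WT + AC libraries (log2 fold change -0.21, SE 0.45, edgeR adjusted p = 0.841). Edn1 had 39, 36 and 34 counts in KO + AC libraries and 27, 31 and 46 in WT + AC libraries (log2 fold change 0.10, SE 0.21, edgeR adjusted p = 0.841). Adm had 23, 20 and 38 counts in KO + AC libraries and 25, 36 and 31 in WT + AC libraries (log2 fold change -0.15, SE 0.24, edgeR adjusted p = 0.781). With the SE of Ramp2, a difference of the size seen in Ramp1 was not detectable at this depth.

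**Figure D3:**
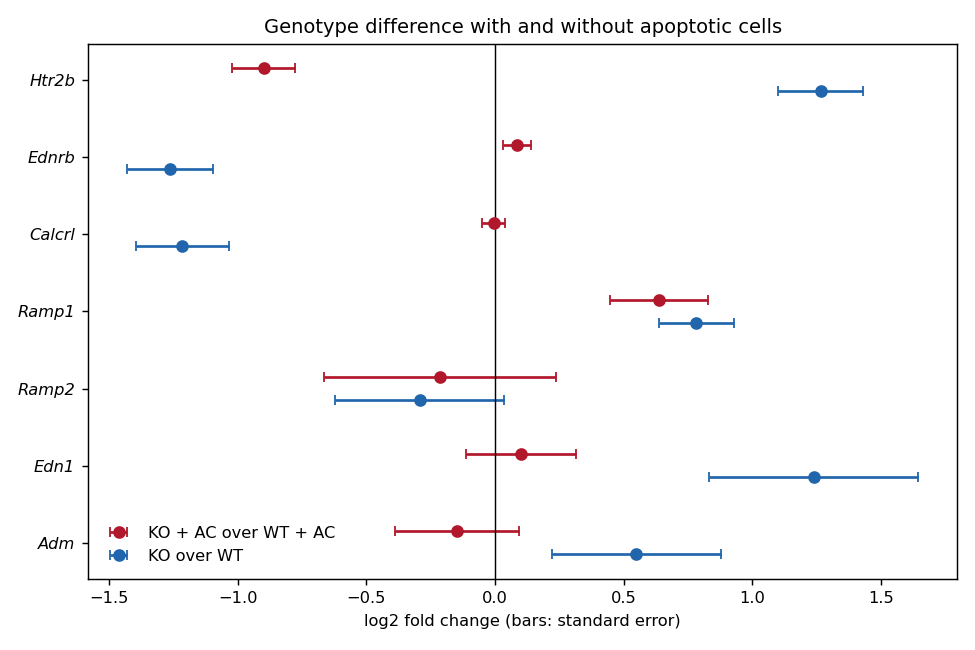
Log2 fold change between genotypes for each gene, KO + AC over WT + AC above and KO over WT below it, with bars of 1 SE. Htr2b lies at -0.90 with and 1.27 without apoptotic cells, Ednrb and Calcrl lie near 0 with and below -1.2 without, and Ramp1 lies at 0.64 and 0.78.

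The genotype difference with apoptotic cells minus that without was -2.14 (SE 0.21) on the log2 scale for Htr2b, 1.37 (SE 0.17) for Ednrb and 1.23 (SE 0.20) for Calcrl. It was -0.12 (SE 0.24) for Ramp1, 0.10 (SE 0.58) for Ramp2, -1.11 (SE 0.46) for Edn1 and -0.67 (SE 0.42) for Adm. These values contain the comparison that chose the genes and carry no test. Over all 16810 genes 12.7% had a called difference of this kind, 7.55% positive and 5.13% negative, and nothing is read from the 2 positive and 1 negative among the 7. Without KO libraries 1 and 2 the values were 1.08 for Ednrb and 0.80 for Calcrl, that of Adm was -0.28 and that of Ramp1 turned to 0.18 (0.02 without WT + AC library 2), while Htr2b stayed between -2.29 and -2.02 in all 19 alternatives. For Ramp2 the sign turned without WT library 2 (-0.24), KO library 2 (-0.01), KO + AC library 3 (-0.23) or WT + AC library 3 (-0.23).

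Apoptotic cells were set against none within each genotype in a joint fit of the 12 libraries. The fit shares the KO and WT libraries with the comparison that chose Htr2b, Ednrb and Calcrl, so for these 3 genes the values are given without a test. In both genotypes Ednrb and Calcrl were higher and Ramp1 and Ramp2 lower with apoptotic cells, while Htr2b was lower in KO + AC than in KO and overlapped between WT + AC and WT. Changes were the rule here: 86.3% of 16810 genes were called between KO + AC and KO and 85% between WT + AC and WT, with medians of 0.32 and 0.25 on the log2 scale. The shares higher were 49.6% and 48.3%, and the shares lower were 36.7% in both. Of the 7 genes, 5 were past the threshold between KO + AC and KO and 6 between WT + AC and WT, from which nothing is read. Scaling by DESeq2's size factors moved the medians of all genes to 0.41 and 0.36, and a length correction to -0.02 and -0.04, so each value is to be read against them. The medians of the 7 genes were 0.04 between KO + AC and KO and 0.66 between WT + AC and WT.

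Htr2b was 4.42 ± 0.688 CPM in KO + AC and 17.5 ± 2.52 CPM in KO, a log2 fold change of -1.99 (SE 0.15) with no overlap. In wild type it was 8.11 ± 0.625 CPM in WT + AC and 7.29 ± 1.31 CPM in WT, with overlapping groups (log2 fold change 0.15, SE 0.15). After the length correction the wild type value was 0.52.

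Ednrb had a log2 fold change of 2.03 (SE 0.12) in KO + AC over KO and of 0.66 (SE 0.11) in WT + AC over WT. For Calcrl it was 2.49 (SE 0.15) in KO + AC over KO and 1.25 (SE 0.13) in WT + AC over WT. No library without apoptotic cells reached a library with them for either gene. The endothelial markers also summed higher with apoptotic cells, at 63.5 to 64.7 CPM in KO + AC and 51.3 to 57.7 CPM in WT + AC, of which Vwf made 56.2 ± 0.461 CPM in KO + AC and 47.3 ± 3.42 CPM in WT + AC. Cldn5 and Tek averaged at most 0.0700 and 0.233 CPM in any group. T cell markers summed to 75.9 to 82.7 CPM in KO + AC and 44.0 to 59.2 CPM in KO, and to 81.2 to 92.7 CPM in WT + AC and 29.8 to 39.0 CPM in WT, where Cd3d and Bcl11b were at 0. Of 8 T cell markers tested, 6 were higher and 1 lower with apoptotic cells in each genotype. Their median log2 fold change was 5.52 in KO + AC over KO and 6.40 in WT + AC over WT. Of all genes, 49.6% and 48.3% were higher in these comparisons, and 36.7% lower in both. Between KO and WT only 2 T cell markers passed the count filter, against the 8 of the joint fit. Most of the 8 thus entered through libraries where they were high, and nothing is read from their calls or medians. Macrophage markers summed to 31510 to 39590 CPM in KO and 31100 to 33700 CPM in WT, above the groups with apoptotic cells. Their members went both ways, with 4 of 10 higher and 5 lower in KO + AC than in KO, and 3 higher and 6 lower in WT + AC than in WT. The part of these markers in the differences of the 7 genes was not tested.

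Ramp1 had the largest log2 change of the 7 genes in both genotypes. It was 2.80 ± 0.155 CPM in KO + AC and 27.6 ± 4.66 CPM in KO, and fell by 3.297 on the log2 scale (SE 0.14, edgeR adjusted p = 8.84e-18). In wild type it was 1.77 ± 0.334 CPM in WT + AC and 16.1 ± 0.455 CPM in WT, and fell by 3.18 (SE 0.16, edgeR adjusted p = 2.48e-16). Ramp2 fell by 1.402 (SE 0.41, edgeR adjusted p = 0.00232) in KO + AC against KO and by 1.51 (SE 0.37, edgeR adjusted p = 0.000491) in WT + AC against WT, at 4 to 28 counts a library. For both partners all libraries with apoptotic cells lay below all libraries without. Among falls Ramp1 held rank 157 of 16810 genes in KO macrophages and rank 99 in wild type.

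Of the ligands, Edn1 rose by 1.70 (SE 0.35, edgeR adjusted p = 5.85e-05) in WT + AC over WT, where libraries had 27 to 46 counts with and 5 to 15 without apoptotic cells. In KO macrophages Edn1 had 34 to 39 counts with and 11 to 24 without, and the difference of 0.59 (SE 0.29, edgeR adjusted p = 0.0587) passed under 4 other settings only: the fit of the 6 libraries compared (0.0375), DESeq2's size factors (0.0317), the length correction (0.00196) and without KO library 1 (0.0472). Adm was 0.71 higher (SE 0.30, edgeR adjusted p = 0.0304) in WT + AC than in WT, a call that ended without WT library 1 (0.149), WT library 2 (0.0564), WT + AC library 2 (0.112) or WT + AC library 3 (0.0574). Its KO + AC value differed from KO by 0.04 (SE 0.29, edgeR adjusted p = 0.898), with a sign that turned between alternatives (-0.29 to 0.42).

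**Figure D4:**
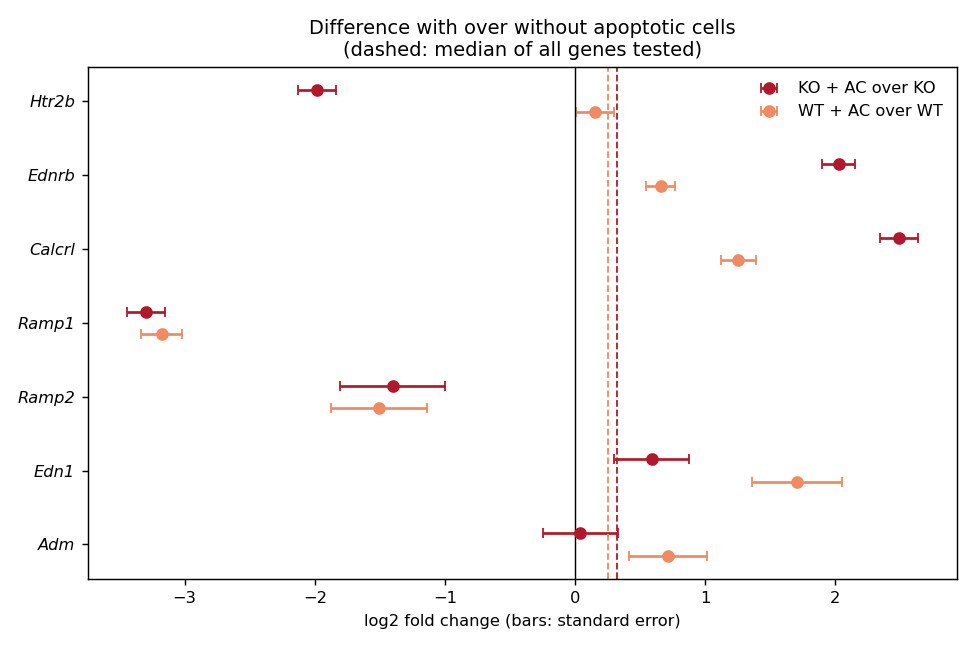
Log2 fold change with over without apoptotic cells for each gene, KO + AC over KO above and WT + AC over WT below it, with bars of 1 SE and dashed lines at the medians of all genes (0.32 and 0.25). Htr2b lies at -1.99 in KO and 0.15 in WT macrophages, Ednrb and Calcrl to the right and Ramp1 and Ramp2 to the left in both.

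The balance between CALCRL's partner and the receptor was computed in each library as Ramp1 over Calcrl, both per kilobase. It was 0.0630, 0.0742 and 0.0756 in KO + AC libraries, 0.0355, 0.0556 and 0.0453 in WT + AC libraries, 4.85, 5.64 and 2.36 in KO libraries and 1.23, 1.002 and 0.795 in WT libraries. Per kilobase of exon the partner thus stood above the receptor in every KO library and about level with it in WT libraries. It was at most 0.0756 of the receptor in the 6 libraries with apoptotic cells. The lengths join all annotated exons of a gene, so the ratio does not count transcripts. The ratio in KO libraries did not overlap that in WT libraries, nor did KO + AC overlap WT + AC, but the first of these comes from the differences that chose Calcrl. Ramp2 over Calcrl averaged 0.0085 ± 0.0039 in KO + AC, 0.0098 ± 0.0046 in WT + AC, 0.135 ± 0.0432 in KO and 0.0693 ± 0.0294 in WT. Ramp3, the other adrenomedullin partner, had 4 to 12 counts in any library with apoptotic cells and 3 to 10 without.

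**Figure D5:**
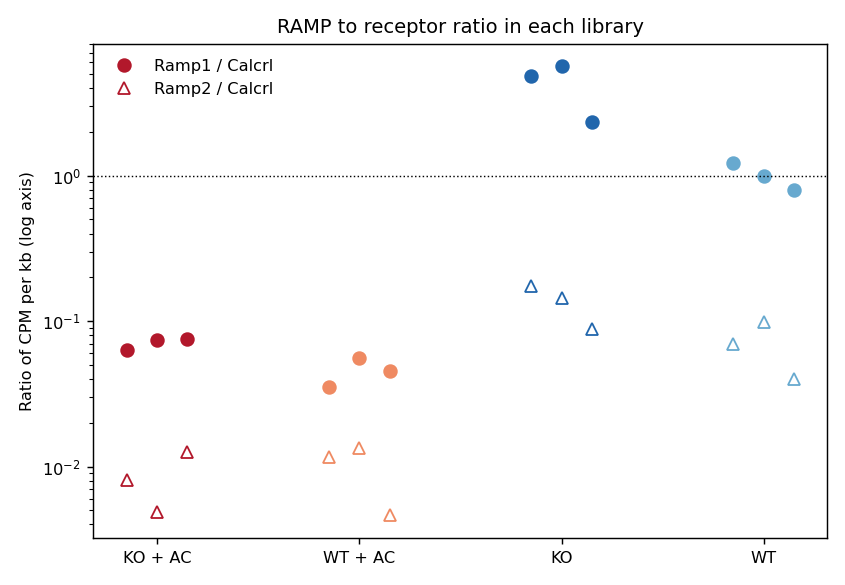
Ratio of partner to receptor level (CPM per kb, log axis) in each library, Ramp1 over Calcrl as circles and Ramp2 over Calcrl as triangles, with a dotted line at equal levels. Ramp1 over Calcrl lies at 0.0355 to 0.0756 with apoptotic cells, at 2.36 to 5.64 in KO and at 0.795 to 1.23 in WT.

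Other genes of the same hormone systems were followed in lists of ligands, enzymes, receptors and signalling proteins. Most ligands of these receptors were hardly detected. Calca, which encodes calcitonin gene-related peptide, had 0, 1 and 2 counts in KO + AC, 1, 0 and 2 in WT + AC, 12, 8 and 9 in KO and 1, 7 and 2 in WT libraries. Edn2 and Edn3, the other endothelins, summed to 8 and 18 counts over the 3 KO + AC libraries, 9 and 19 in WT + AC, 0 and 2 in KO and 3 and 1 in WT. Adm2, a further ligand of the CALCRL complexes, summed to 10 counts in KO + AC, 7 in WT + AC, 15 in KO and 1 in WT, and Calcb, a second gene for calcitonin gene-related peptide, to 2 in KO + AC, 0 in WT + AC, 4 in KO and 0 in WT. Calcr, the calcitonin receptor that also pairs with these partners, summed to 13 counts in KO + AC, 15 in WT + AC and 0 in KO and WT. Tph1, the first enzyme of serotonin synthesis outside the brain, summed to 25 counts in KO + AC, 33 in WT + AC, 4 in KO and 7 in WT.

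Of the 4 serotonin system genes besides Htr2b that were tested between KO + AC and WT + AC, none was called, while Htr2a and Slc18a1 had unadjusted p = 0.0451 and 0.0223 in edgeR. Between KO and WT, 1 of 5 was called higher and 1 lower, against 7.94% and 8.24% of all genes. Ddc, the decarboxylase that completes serotonin synthesis, was higher in KO (6.55 ± 0.159 CPM in KO and 4.21 ± 0.181 CPM in WT, log2 fold change 0.64, SE 0.17, edgeR adjusted p = 0.0174). Htr2a, another serotonin receptor on the list, was lower in KO (1.12 ± 0.393 CPM in KO and 2.14 ± 0.513 CPM in WT, log2 fold change -0.92, SE 0.30, edgeR adjusted p = 0.0392). Ddc lost its call in 5 of 14 and Htr2a in 6 of 13 alternatives, among them leaving out KO libraries 1 and 2.

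Htr2a also moved apart from Htr2b with apoptotic cells. It was 6.02 ± 0.208 CPM in KO + AC and 1.12 ± 0.393 CPM in KO, and rose by 2.41 on the log2 scale (SE 0.21, edgeR adjusted p = 2.17e-11), and it rose by 1.70 (SE 0.18, edgeR adjusted p = 1.09e-09) in WT + AC over WT. Slc18a2, which loads monoamines into vesicles, rose by 2.28 (SE 0.24) in KO + AC over KO and by 1.91 (SE 0.23) in WT + AC over WT, while Ddc fell by 3.89 (SE 0.23) in KO + AC against KO and fell by 2.79 (SE 0.23) in WT + AC against WT.

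In the endothelin list, neither of the 2 other genes tested in each case was called between the genotypes with apoptotic cells (Ece1 and Mme) or without (Ednra and Ece1), and none had an unadjusted p under 0.05 in edgeR. Ece1, which cuts the endothelin precursor, rose by 1.42 (SE 0.14) in KO + AC over KO and by 1.38 (SE 0.14) in WT + AC over WT (edgeR adjusted p = 2.76e-10 and 4.49e-10). Mme, a protease that degrades vasoactive peptides, rose by 1.28 (SE 0.35) and 1.29 (SE 0.33) in the same comparisons, calls that ended under the length correction. Mme passed the count filter with apoptotic cells but not without, so it entered the joint fit where it was higher, and nothing is read from these calls. Ednra, the other endothelin receptor, was 0.365 ± 0.137 CPM in KO + AC and 0.932 ± 0.0469 CPM in KO, and fell by 1.34 (SE 0.40, edgeR adjusted p = 0.00338), whereas in WT + AC against WT the difference of -0.53 (SE 0.41) did not pass (adjusted p = 0.232). Ednra passed the count filter only without apoptotic cells, where it was higher, so nothing is read from its call either. In the calcitonin and adrenomedullin list, Crcp, a protein that couples the CALCRL complex to its signal, fell by 1.74 (SE 0.10) in KO + AC against KO and by 1.68 (SE 0.10) in WT + AC against WT.

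Receptors for other vasoactive signals differed between KO + AC and WT + AC in 7 of 23 tested genes, 4 higher and 3 lower, where 11.3% of all genes were called, 6.58% higher and 4.75% lower. DESeq2 called 4 higher and 0 lower, as did edgeR without KO + AC library 2, and the joint edgeR fit of 12 libraries called 0 of 26. The adenosine receptors Adora2a and Adora2b, which raise cyclic AMP, were higher in KO + AC. Adora2a was 108.9 ± 3.87 CPM in KO + AC and 89.95 ± 2.53 CPM in WT + AC (log2 fold change 0.25, SE 0.04, edgeR adjusted p = 4.71e-06), and Adora2b was 53.02 ± 1.06 CPM in KO + AC and 42.8 ± 2.24 CPM in WT + AC (0.29, SE 0.05, edgeR adjusted p = 1.64e-05). The prostacyclin receptor Ptgir (0.16, SE 0.04) and the nucleotide receptor P2ry2 (0.16, SE 0.04) were higher as well. Between KO and WT, 3 of 20 were called, all lower in KO, where 16.2% of all genes were called and 8.24% were lower. Among the 3 were S1pr1 (-0.64, SE 0.13) and P2ry1 (-0.71, SE 0.17), which bind sphingosine 1-phosphate and nucleotides. These calls ended without KO libraries 1 and 2.

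With apoptotic cells 12 of 26 of these receptors rose and 10 fell in KO + AC against KO, and 11 rose and 12 fell in WT + AC against WT. Only 20 were tested between KO and WT and 23 between KO + AC and WT + AC. Some of the 26 thus passed the count filter in 1 condition only, and nothing is read from these counts. Of all genes, 49.6% were higher and 36.7% lower in KO + AC than in KO, and 48.3% and 36.7% in WT + AC than in WT. Adora2a rose by 4.17 (SE 0.11) in KO + AC over KO and by 3.78 (SE 0.11) in WT + AC over WT, and Adora2b by 3.50 (SE 0.13) and 3.02 (SE 0.13). Npr3, the natriuretic peptide clearance receptor, had 191, 176 and 197 counts in KO + AC and 2, 0 and 0 in KO libraries, a ratio of count shares of 303 (95% exact binomial interval 83.5 to 2509, counting error only). It had 208, 244 and 175 counts in WT + AC and 0, 0 and 1 in WT libraries, a ratio of 673 (120 to 26640). Among ligands, Adcyap1, a vasodilator neuropeptide, had 110, 124 and 107 counts in WT + AC and none in WT, at least 40.7-fold higher with 3 counts per library as the floor, and 298 counts in KO + AC against 1 in KO.

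Signalling genes downstream of the receptors were counted in 2 lists. In the Gs and cyclic AMP list 1 of 22 was higher and 1 lower in KO + AC than in WT + AC: the phosphodiesterases Pde4b (0.15, SE 0.04) and Pde4a (-0.35, SE 0.11). In the Gq and calcium list 3 of 19 were higher, Gna13 (0.20, SE 0.03), Prkcd (0.15, SE 0.03) and Nfatc1 (0.14, SE 0.04), and 2 were lower, among them Itpr3 (-0.30, SE 0.06), a calcium channel of internal stores. Over all lists 8 of 78 genes besides the 7 were higher and 7 lower, against 6.58% and 4.75% over all genes, and in the joint fit of 12 libraries none of 84 was called (12 had an unadjusted p under 0.05 in edgeR). Between KO and WT, Adcy3, an adenylyl cyclase, was higher (0.82, SE 0.17), and Rgs1 (-0.57, SE 0.13) and Rgs2 (-0.42, SE 0.13), which switch off G proteins, were lower. Prkar2b, a subunit of protein kinase A, the phosphodiesterase Pde3b and the transcription factor Creb1 were lower by similar amounts (-0.44, SE 0.14, then -0.51, SE 0.16, and -0.43, SE 0.14). Of these 6 calls only that of Rgs1 held without KO libraries 1 and 2, and it ended without WT library 3 (edgeR adjusted p = 0.0556). Over all lists 3 of 71 were higher and 9 lower in KO, against 7.94% and 8.24% over all genes, and 0 higher and 1 lower of 74 without KO libraries 1 and 2.

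Among signalling genes Pde4b and Rgs2 stood far apart between libraries with and without apoptotic cells. The part of RNA from the added Jurkat cells in these differences was not tested. Pde4b, which degrades cyclic AMP, was 178.8 ± 2.53 CPM in KO + AC and 2.89 ± 1.22 CPM in KO, and rose by 5.93 on the log2 scale (SE 0.16, edgeR adjusted p = 1.09e-21). In wild type it rose by 5.42 (SE 0.16, edgeR adjusted p = 3.53e-21). Rgs2 was 3.89 ± 0.499 CPM in KO + AC and 169.5 ± 19.5 CPM in KO, and fell by 5.44 (SE 0.14), and in WT + AC against WT it fell by 5.465 (SE 0.14). Gna13, a G protein subunit, rose by 2.31 (SE 0.09) in KO + AC over KO and by 1.875 (SE 0.09) in WT + AC over WT, and Crem, a repressor induced by cyclic AMP, fell by 1.70 (SE 0.16) in KO + AC against KO and fell by 1.82 (SE 0.16) in WT + AC against WT. In the Gq list 13 of 19 rose and 4 fell in KO + AC against KO, and 15 rose and 4 fell in WT + AC against WT. Over all genes the shares were 49.6% higher and 36.7% lower in KO + AC than in KO, and 48.3% and 36.7% in WT + AC against WT. After the length correction 11 of the 19 were higher and 6 lower in KO + AC than in KO, and 11 higher and 5 lower in WT + AC than in WT.

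The effect of genotype differed between the conditions for 12 of 84 list genes upward and 4 downward, against 7.55% and 5.13% over all genes, and without KO libraries 1 and 2 for 4 of 92 upward and 4 downward. S1pr1 had a positive difference (0.57, SE 0.13, edgeR adjusted p = 0.00556), as Ednrb and Calcrl did. Adcy3 had a negative one (-1.09, SE 0.19, edgeR adjusted p = 0.000532), as Htr2b did. Adcy3 was 7.56 ± 0.627 CPM in KO + AC and 9.16 ± 1.009 CPM in WT + AC, against 9.02 ± 1.18 CPM in KO and 5.12 ± 0.098 CPM in WT.

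Genes whose log2 CPM ran most like that of each receptor over the 12 libraries were sought among 10227 genes that averaged 2 CPM or more. The correlations follow the 4 groups, which share condition and depth, and are descriptions only. Htr2b ran closest to Wfs1 (r = 0.96), Treml2 (0.931) and Mcoln3 (0.93), and Treml2 was 5.20 CPM in KO + AC, 7.70 in WT + AC, 17.6 in KO and 8.13 in WT. Ednrb ran closest to Tlr1, Abi2 and Rspry1 (r = 0.982 each) and Calcrl to Mef2a (0.997), Ipo7 (0.996) and Mbnl2 (0.996). Within the 6 libraries with apoptotic cells the likeness of Ednrb to Tlr1 was 0.821 and that of Calcrl to Mef2a 0.713, while that of Htr2b to Wfs1 was 0.937 to 0.943 within either set of 6.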

How the data were processed

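The authors deposited raw read counts per gene symbol in 2 tables, 1 without and 1 with apoptotic cells, for 12 paired-end poly(A) libraries, per the labels' protocols. The submitters' processing notes name fastp, HISAT2 2.0.5, DESeq2 1.20.0 and mm10. Not given in the sources used here: how reads were counted, on which annotation and whether by strand. Reads shared between overlapping genes may therefore be counted differently from what the gene models show.

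Genotypes were compared within each table, and apoptotic cells in a joint fit of the 54582 shared symbols, with edgeR 4.0.16 (R 4.3.3): TMM scaling, filterByExpr (minimum count 10, total 15), robust quasi-likelihood test, 2-sided, Benjamini-Hochberg adjusted over all genes tested and called at 0.05. CPM use the joint scale. Depth was 17000976 to 18770757 counts a library. Exonic lengths came from GENCODE vM21 (GRCm38). The alternatives were DESeq2 1.42.0, its size factors, no filter, other fits, limma 3.58.1 (voom), a replicate block, leaving out libraries and a length correction (lowess span 0.3); for comparisons with apoptotic cells, the length correction and leaving out KO libraries 1 and 2 were chosen after seeing the data. Fits were tested on simulated data.

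The 7 genes, the lists and the markers were chosen with earlier results of these data known. Named are all 7, of each list up to 4 called genes of smallest p per comparison and any ligand, receptor or partner, and the 3 genes most like each receptor (Pearson r of log2(CPM + 1), predicted, ribosomal, mitochondrial and pseudogenes left out). Psmd1 and Vps25 were named for overlapping exons and markers as examples. One gene that the rule names is not reported here.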

Additional observations from a re-analysis of the deposited data

Results flagged for a closer look

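The search covered 29 genes, which were the 7 and the named list genes already called between the genotypes with or without apoptotic cells. Of these, 4 had opposite genotype differences without and with apoptotic cells, with no overlap between the genotypes in either. Over all 12125 genes tested in both comparisons of the genotypes, 8.29% did. The 29 were picked for genotype differences and the 12125 were not, so nothing is read from the 4. The genotype difference with apoptotic cells minus that without was -2.139 on the log2 scale for Htr2b and 1.369 for Ednrb. It was 0.5261 for Creb1, a transcription factor activated by cyclic AMP, with 53.6 ± 1.26 CPM in KO + AC and 50.3 ± 1.10 CPM in WT + AC, and 24.5 ± 3.43 CPM in KO and 33.2 ± 2.88 CPM in WT (SD, n = 3 in each group). It was -0.7491 for Npy, a vasoconstrictor neuropeptide, with 107.8 ± 3.48 CPM in KO + AC and 128.4 ± 2.43 CPM in WT + AC, and 518 ± 109.8 CPM in KO and 367 ± 48.5 CPM in WT. For all 4 genes the difference is given without a test, because the same values picked out the pattern, and Htr2b and Ednrb were also among the genes chosen by their genotype difference.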

How the results depend on the processing

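No alternative reversed a called direction among the 7 genes. Among the list genes named, the called difference of Creb1 between KO + AC and KO (1.13) turned to -0.02 under the length correction, where the Gs and cyclic AMP list had 9 higher and 9 lower of 22, against 13 and 4. Calls between KO + AC and WT + AC numbered 1866, and 1239 in DESeq2 (895 higher and 344 lower, against 1083 and 783), 157 in the joint fit (68 and 89) and 1192 to 2142 with 1 library left out. Of the 6 genes tested there, the joint edgeR fit and DESeq2 each called 0 (1 had an unadjusted p under 0.05 in each, and DESeq2 gave Ramp1 no adjusted p), and leaving out 1 library left 0 to 1. Calls between KO and WT numbered 2045, and 3999 in the joint fit, 95 without KO libraries 1 and 2, 4517 without KO library 3 and WT library 1, and 312 to 4166 with 1 library left out (312, 698 and 4166 when KO library 1, 2 or 3 was dropped, and 1001 and 370 when WT library 2 or 3 was). Differences between conditions in the genotype effect numbered 2132, and 1043 without KO libraries 1 and 2, an alternative added after seeing the data, and 1129 to 4330 with 1 library left out. Calls numbered 14165 to 14528 between WT + AC and WT and 14458 to 14893 between KO + AC and KO with 1 library left out, with 5 to 6 of the 7 genes called in each. The replicate numbers did not pair the samples (correlations of same-numbered deviations -0.107 to 0.0639). With the replicate block there were 1649 calls between KO + AC and WT + AC, 2496 between KO and WT, 14453 between KO + AC and KO and 14246 between WT + AC and WT, and it changed no call among the 7 genes in the comparisons where they were tested. Libraries correlated best with their own number in 2 of 6 cases for KO + AC and WT + AC, 1 of 6 for KO and WT, 0 of 6 for KO + AC and KO and 6 of 6 for WT + AC and WT. Where leaving out libraries left 1 in a group, that library was assumed to vary like the others. The causes of these changes were not tested. Counts under 50 a library limit Ramp2, Edn1 and Adm most.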
